A study of Mus musculus with 10 samples.

Results

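Splicing factor and heterogeneous nuclear ribonucleoprotein (hnRNP) genes were examined in LSK cells of 5 control and 5 LysM-KI mice. The genes were chosen by symbol alone, those starting with Srsf, Sf3a, Sf3b, Snrp, Hnrnp or U2af or their older forms, and the array held 51 of them on 120 probes, out of 19057 genes with a symbol. The probe with the highest mean deposited intensity over the 10 arrays stood for each gene. LSK cells are bone marrow cells without lineage markers that carry Sca1 and cKit, and they hold the haematopoietic stem cells and multipotent progenitors. All mice, controls included, carried the strain label LysMCre and were 9 to 16 weeks old. In LysMCre mice the lysozyme gene Lyz2, most active in mature myeloid cells, drives Cre recombinase. The labels call the mutant genotype LysM-KI without naming the allele that was knocked in, and they give neither sex nor litter. The sample titles name 1 mouse per array, so the spread between arrays includes that between mice, sorts and amplifications.

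Introns are removed by the spliceosome, which is built from small nuclear ribonucleoproteins (snRNPs) and many further proteins. SR proteins bind exonic enhancers through RNA recognition motifs and recruit the splicing machinery through a domain rich in arginine and serine. The U2 auxiliary factor (U2AF) and the SF3A and SF3B complexes recognise the 3′ splice site and the branch point, Sm proteins form the ring around the small nuclear RNAs, and hnRNPs coat nascent transcripts and often oppose SR proteins. In human myeloid neoplasms SRSF2, SF3B1 and U2AF1 are recurrently mutated, and blood stem and progenitor cells depend on an intact spliceosome.

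The promoters of the genes were at the median richer in CpG than all promoters, a feature that the choice by symbol had not used. RefSeq promoter windows (build GRCm38.p6, from 250 bases before to 50 bases after a transcription start) were found for 44 of the 51 genes, 59 windows in all. These held a median of 26 CpG dinucleotides (range 7 to 52), against a median of 7 over all 32851 windows, and a median GC content of 62.7% against 52.7%. The windows of other genes detected in LSK cells were not compared separately. The GC box GGGCGG, searched on both strands, occurred in 72.9% of the gene windows and 35.7% of all windows. The ETS motif CCGGAAG occurred in 32.2% and 8.86%, the CRE core TGACGT in 22% and 7.51%, CCAAT in 49.2% and 37.4%, and the TATA box TATAAA in 10.2% and 13.6%. CpG-rich windows hold GC-rich motifs more readily, and these are matches of letters, not measured sites. The arrays measured transcript levels and not promoter activity. Below are the windows of the 2 SR genes with the smallest p on either side of 0 and of the hnRNP gene whose 4 probes all had the same sign, with matches to these motifs in capitals.
Srsf6, chr2:162931258-162931557, plus strand: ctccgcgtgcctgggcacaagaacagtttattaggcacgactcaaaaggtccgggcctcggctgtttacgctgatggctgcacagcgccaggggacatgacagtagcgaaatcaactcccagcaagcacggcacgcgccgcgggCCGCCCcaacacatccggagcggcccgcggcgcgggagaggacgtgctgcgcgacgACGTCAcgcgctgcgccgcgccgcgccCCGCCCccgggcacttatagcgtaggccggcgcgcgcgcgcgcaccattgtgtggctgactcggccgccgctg
Srsf10, chr4:135855821-135856120, plus strand: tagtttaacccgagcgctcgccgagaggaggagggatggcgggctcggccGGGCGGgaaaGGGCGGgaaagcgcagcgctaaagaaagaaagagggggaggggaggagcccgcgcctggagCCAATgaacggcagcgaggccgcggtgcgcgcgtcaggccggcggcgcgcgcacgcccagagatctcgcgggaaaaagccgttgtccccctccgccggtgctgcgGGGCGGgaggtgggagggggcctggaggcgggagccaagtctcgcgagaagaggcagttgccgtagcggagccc
Hnrnpdl, chr5:100039173-100039472, minus strand: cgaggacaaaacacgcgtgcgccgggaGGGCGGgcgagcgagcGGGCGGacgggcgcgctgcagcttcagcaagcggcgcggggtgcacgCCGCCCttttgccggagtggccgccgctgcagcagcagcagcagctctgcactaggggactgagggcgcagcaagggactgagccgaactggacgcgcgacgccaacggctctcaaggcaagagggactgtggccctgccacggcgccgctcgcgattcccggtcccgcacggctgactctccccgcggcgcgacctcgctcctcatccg
The Srsf6 window held 45 CpG dinucleotides, 2 GC boxes and 1 CRE core, the Srsf10 window 38, 3 GC boxes and 1 CCAAT box, and the Hnrnpdl window 42 and 3 GC boxes. GC boxes of this form were thus present in all 3.

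The arrays as a whole behaved as follows. Array medians of the deposited intensity ran from 102.3 to 140, and 15234 (control replicate 4) to 18801 (LysM-KI replicate 4) of 45281 probes were detected per array. Control replicate 4 had the lowest median correlation with the other arrays, 0.765. Of 10 listed LSK and stem cell genes 8 were found on the array and 7 were kept, 5 above and 2 below 0. Kit, a receptor of the sort gate, Cd34 and Flt3 were among those detected on all 10 arrays. Slamf1 was detected on 2 LysM-KI arrays only and was not kept, and Ly6a, the gene of Sca1, was not among the 8. Of 8 monocyte and macrophage markers none was detected on 5 arrays, and Itgam and Cd14 on none. Of 9 erythroid markers 5 were kept and all 5 had a negative log2 fold change, the summed linear level of the list running from 1072 to 13329 in control and from 918 to 5253 in LysM-KI arrays. Of 9 neutrophil markers 4 were kept, also all below 0, with summed levels from 368 to 4389 and from 415 to 1846. S100a9 was detected on all 10 arrays, at -1.19 (SE 1.09), with log2 levels from 5.57 to 11.57 in control and from 5.93 to 10.50 in LysM-KI mice. Lcn2 and Mmp8 were detected on no array. Of the B and plasma cell list 7 of 9 were kept, 5 above and 2 below 0. The 2 were the plasma cell genes Jchain, at -0.77 (SE 0.27, limma adjusted p = 0.877), and Mzb1, at -1.90 (SE 0.32, limma adjusted p = 0.392, the smallest of the array), whose groups did not overlap. Of the T and NK cell list 3 of 8 were kept, and of the stroma and endothelium list 3 of 10, the latter all below 0. Pdgfrb at -1.04 (SE 0.33) and Sparc at -1.40 (SE 0.57) were past the unadjusted threshold of 0.05. Of all tested probes 1.94% passed it as lower. Each of these genes was detected on 4 control and 2 LysM-KI arrays, so most of their LysM-KI values are not told apart from background. For Pecam1, the remaining kept gene of that list, the difference was -0.13, with signal called on 5 arrays of each group. The part of other cells in the results below was not tested.

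Most of the splicing genes were detected in LSK cells, with mean deposited intensities from 148 (Sf3b1) to 9262 (Hnrnpm) among those tested. Of the 51, 49 were detected on at least 5 of the 10 arrays (detection p under 0.05) without regard to group and entered the test, and 46 of these were detected on all 10. The SR gene Srsf12 was detected on 1 control array only, and Sf3a2, a subunit of the SF3A complex, on none, so neither was tested. The comparison of LysM-KI with control cells asked which transcripts differ with the genotype. All values are log2 intensities after background correction and quantile normalization, and differences are LysM-KI minus control.

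No splicing factor or hnRNP gene passed the adjusted threshold. In limma's moderated test with Benjamini-Hochberg adjustment over 17245 probes, the adjusted p of the 49 genes ran from 0.881 to 0.999, and 0% of all tested probes passed. At an unadjusted p under 0.05 there was 1 of the 49 genes, Srsf6, or 2.04%, against 5.35% of all tested probes, of which 3.4% passed as higher and 1.94% as lower with the LysM-KI genotype. Srsf6 was also the only gene whose groups did not overlap, a pattern that 0.91% of all tested probes had. The first share lay below its background, and the second was 1 gene. The unadjusted count was 0 without LysM-KI replicate 5 and 2 without control replicate 1, 4 or 5. Over all tested probes the unadjusted calls numbered 922 with every array and 834 without LysM-KI replicate 5. They numbered 1224, 940 and 1000 without control replicates 1, 4 and 5. The count of genes whose groups did not overlap was 0 with cyclic loess normalization, 3 without control replicate 1, and 2 without control replicate 3 or 4. With an array left out, groups separate more readily, and the share of all probes in these fits is not given here. A higher count is therefore not read as a trait of these genes. The fold changes of the 49 genes ran from -1.16 to 0.67 on the log2 scale, with 36 above and 13 below 0 and a median of 0.09. Over all tested probes the median was 0.03 and 53.4% were above 0, and over the 9707 probes detected on every array it was 0.04 with 54.9% above 0. In a bulk sample less RNA per cell and fewer cells of a type cannot be told apart.

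The estimated differences were small for most genes. The median absolute log2 fold change was 0.15 for the 49 genes, 0.28 for all tested probes and 0.24 for the probes detected on every array. It was over 0.5 for 7 genes and for 27.2% of all tested probes. The 95% interval lay within 1 log2 unit (2-fold) of 0 for 34 of the 49 genes, against 35.5% of all tested probes. Each of the 49 genes stands on its brightest probe, whereas all tested probes include dimmer second probes. The sets are thus unlike, and these values do not show that the splicing genes vary less than other genes. It lay within 0.5 log2 units (1.41-fold) for Srsf1, Hnrnpa1, Hnrnpa3 and Hnrnpab, 4 genes, against 1.35% of all tested probes. On those probes a difference above 1.41-fold in either direction lay outside the interval, but other kept probes of the same 4 genes had wider ones, from -0.93 to 0.45 for Srsf1, -0.99 to 0.89 for Hnrnpa1, -0.84 to 0.61 for Hnrnpa3 and -0.36 to 1.25 for Hnrnpab at the widest. A limit this narrow thus holds for the brightest probe and not for every probe of the gene, and for the other genes a p over the threshold leaves larger differences within it.

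**Figure D1:**
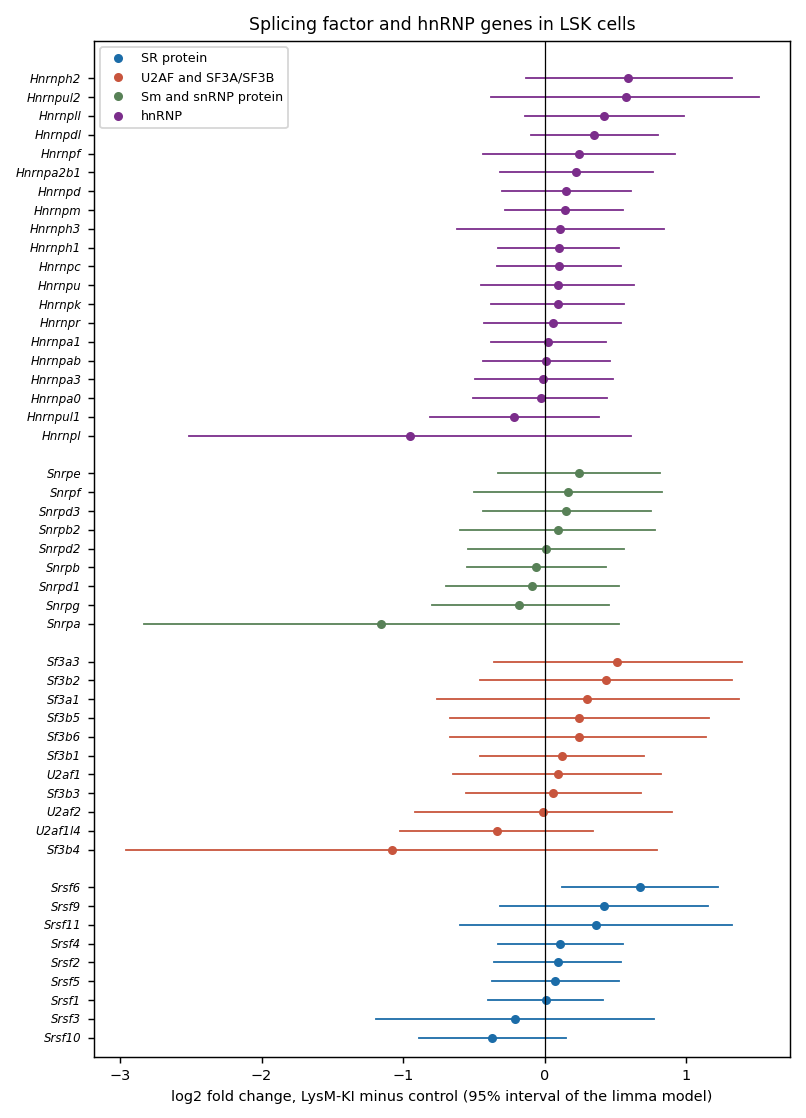
Log2 fold change of LysM-KI against control (horizontal axis) for the 49 tested genes by class, each point with the 95% interval of the limma model (5 mice per group). Only the interval of Srsf6, from 0.12 to 1.22, does not include 0, and those of Sf3b4, Snrpa and Hnrnpl are the widest.

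SR proteins came nearest to a difference through Srsf6, which encodes a regulator of alternative exons (SRp55 in older literature). Its levels were 9.74, 10.15, 9.76, 9.05 and 9.60 in control replicates 1 to 5 and 10.23, 10.32, 10.25, 10.16 and 10.70 in LysM-KI replicates 1 to 5. Every LysM-KI mouse lay above every control mouse, but the lowest LysM-KI and the highest control value were only 0.00414 apart. The log2 fold change was 0.67 (SE 0.25, 95% interval 0.12 to 1.22), a 1.59-fold difference, and the limma adjusted p = 0.881. It was 0.58 (SE 0.27) if LysM-KI replicate 5 was left out, where it missed the unadjusted threshold of 0.05. It was 0.52 (SE 0.23) when control replicate 4 was omitted, and 0.52 (SE 0.24), short of that threshold, if LysM-KI replicate 2 was left out too.

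The other probe of Srsf6 was not used to stand for the gene and gave the same direction. Its levels were 7.21, 7.41, 7.67, 6.30 and 7.25 in control and 8.19, 9.08, 8.26, 8.36 and 6.88 in LysM-KI replicates 1 to 5. LysM-KI replicate 5, the highest mouse on the brighter probe, lay within the control range here, and control replicate 4 was the lowest mouse on both. This probe gave a log2 fold change of 0.99 (SE 0.40, 95% interval 0.10 to 1.87, limma adjusted p = 0.881). Among 23 alternative fits it stayed under the unadjusted threshold of 0.05 in 15 and the brighter probe in 20. Both probes were read on the same 10 arrays and share the mice and the amplification.

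Srsf10 encodes an SR protein that represses splicing when it is dephosphorylated. It was the SR gene with the smallest p below 0, with levels of 9.81, 10.48, 10.50, 10.20 and 10.16 in control and 9.67, 9.67, 9.62, 10.07 and 10.27 in LysM-KI replicates 1 to 5. The first 3 LysM-KI mice lay below all controls, and the other 2 among them. The difference was -0.37 on the log2 scale (SE 0.24, 95% interval -0.89 to 0.15, limma adjusted p = 0.944). Its 3 other kept probes gave -0.14, 0.02 and 0.73, so the direction depends on the probe.

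The remaining SR genes lay between -0.21 and 0.42 on the log2 scale, and all their intervals included 0. Srsf1, the prototype of the family, had the smallest spread of all 49 genes in control mice, at 12.24, 12.13, 12.24, 12.20 and 12.16 against 12.34, 12.13, 12.18, 12.15 and 12.19 in LysM-KI replicates 1 to 5. Its log2 fold change was 0.01 with a 95% interval from -0.40 to 0.41, which is wider than its own spread would give because the model shares variance between probes. Srsf2, a factor of exon inclusion that is mutated in human myeloid neoplasms, stood at 11.44, 11.55, 11.09, 11.13 and 11.43 in control and 11.34, 11.52, 11.38, 11.26 and 11.61 in LysM-KI mice. The groups overlapped over most of their range, with a log2 fold change of 0.09 (95% interval -0.36 to 0.54), and its other kept probe gave 0.11. Srsf4 and Srsf5, at 0.11 and 0.07 on the log2 scale, had standard errors of 0.20. Srsf9 and Srsf11, at 0.42 (SE 0.33) and 0.36 (SE 0.44), exceeded their control mean in each of the 5 LysM-KI mice, but their control mice spread from 8.68 to 10.19 and from 7.07 to 9.61. Srsf9 came to 0.21 without control replicate 4 and 0.24 without control replicate 5. Srsf11 came to 0.03 without control replicate 4, 0.22 without control replicate 3 and 0.67 without control replicate 2, and its 3 other kept probes gave -0.43, -0.16 and 0.09. Srsf3, whose protein also acts in mRNA export, came to -0.21 (SE 0.45). It was at 9.68 in control replicate 5 against at most 8.22 in the other controls, and without that array the log2 fold change was 0.18. In all, 7 of 9 tested SR genes were above 0, with a median of 0.09.

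U2AF and the SF3A and SF3B subunits, which act together at the branch point and 3′ splice site, gave 8 of 11 genes above 0 and a median of 0.12. U2af1, the small U2AF subunit that reads the AG at the intron end, measured 8.54, 9.57, 8.38, 8.27 and 8.44 in control and 9.05, 8.18, 9.31, 8.91 and 8.18 in LysM-KI replicates 1 to 5. Its log2 fold change was 0.09 (95% interval -0.65 to 0.82), and neither group stood apart. U2af2, the large subunit that binds the polypyrimidine tract, was at -0.01 (95% interval -0.92 to 0.90) and the paralog U2af1l4 at -0.34 (SE 0.31). Sf3b1, the scaffold of SF3B, was dim, with levels of 5.86, 5.49, 5.64, 4.64 and 5.71 in control and 5.48, 5.43, 5.51, 5.77 and 5.75 in LysM-KI mice. Control replicate 4, the lowest, was the only array on which it was not detected. Without that array the log2 fold change of 0.12 (95% interval -0.46 to 0.70) became -0.08.

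Sf3b4, another SF3B subunit, varied most between mice. Its brightest probe read 8.33, 9.24, 8.23, 4.73 and 8.41 in control and 5.86, 7.09, 7.76, 7.94 and 4.88 in LysM-KI replicates 1 to 5. It was not detected on control replicate 4 or LysM-KI replicate 5, so those values are not told apart from background. The difference was -1.08 on the log2 scale (SE 0.85, limma adjusted p = 0.948), and -0.63 without LysM-KI replicate 5. Without control replicate 4 it was -1.85 (SE 0.61, limma adjusted p = 0.754). Its other kept probe gave 0.95 (SE 0.56), the widest disagreement between probes among the 49 genes. Sf3b6, which lies next to the branch point adenosine, gave 0.24 on its brightest probe and -0.81 (SE 0.41) on the other. On the log2 scale Sf3a3 differed by 0.51 (SE 0.40), Sf3b2 by 0.43 (SE 0.41), Sf3a1 by 0.30 (SE 0.48), Sf3b5 by 0.24 and Sf3b3 by 0.06. Single arrays moved the first 3: Sf3a3 came to 0.21 without control replicate 4 and 0.77 without LysM-KI replicate 2, Sf3b2 to 0.09 without LysM-KI replicate 2 and 0.26 without control replicate 3, and Sf3a1 to between 0.04 (without control replicate 2) and 0.62 (without LysM-KI replicate 1). The spread of this class was the largest of the 4, with a median SD of 0.61 in control and 0.52 in LysM-KI mice.

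Sm proteins and the specific proteins of the U1 and U2 particles were split around 0, with 5 of 9 genes above it and a median log2 fold change of 0.01 (0.13 without control replicate 3). The ring subunits Snrpb, Snrpd1, Snrpd2, Snrpd3, Snrpe, Snrpf and Snrpg lay between -0.18 and 0.24, and all 7 intervals included 0 and stayed within 1 log2 unit of it. Snrpe, at 0.24 (SE 0.26), exceeded its control mean in every LysM-KI mouse, with 9.70 to 10.23 against 9.16 to 10.27 in control mice. Snrpb, which provides the SmB subunits, gave -0.06 (SE 0.22) on the brightest probe and 0.29 on the other. Snrpb2, a U2 protein, came to 0.09 (SE 0.31). Snrpa, the U1 protein that binds a stem-loop of U1 RNA, had the lowest log2 fold change of all, -1.16 (SE 0.76, 95% interval -2.83 to 0.52). Its levels were 8.53, 8.65, 9.35, 11.07 and 6.78 in control and 8.41, 5.74, 8.62, 8.25 and 7.58 in LysM-KI replicates 1 to 5. Control replicate 4 was the highest and LysM-KI replicate 2 the lowest of the 10 mice. The log2 fold change was -0.61 without the first, -0.66 without the second and -0.11 (SE 0.52) without both, and -1.68 without control replicate 5. The other kept probe of Snrpa gave -0.09.

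**Figure D2:**
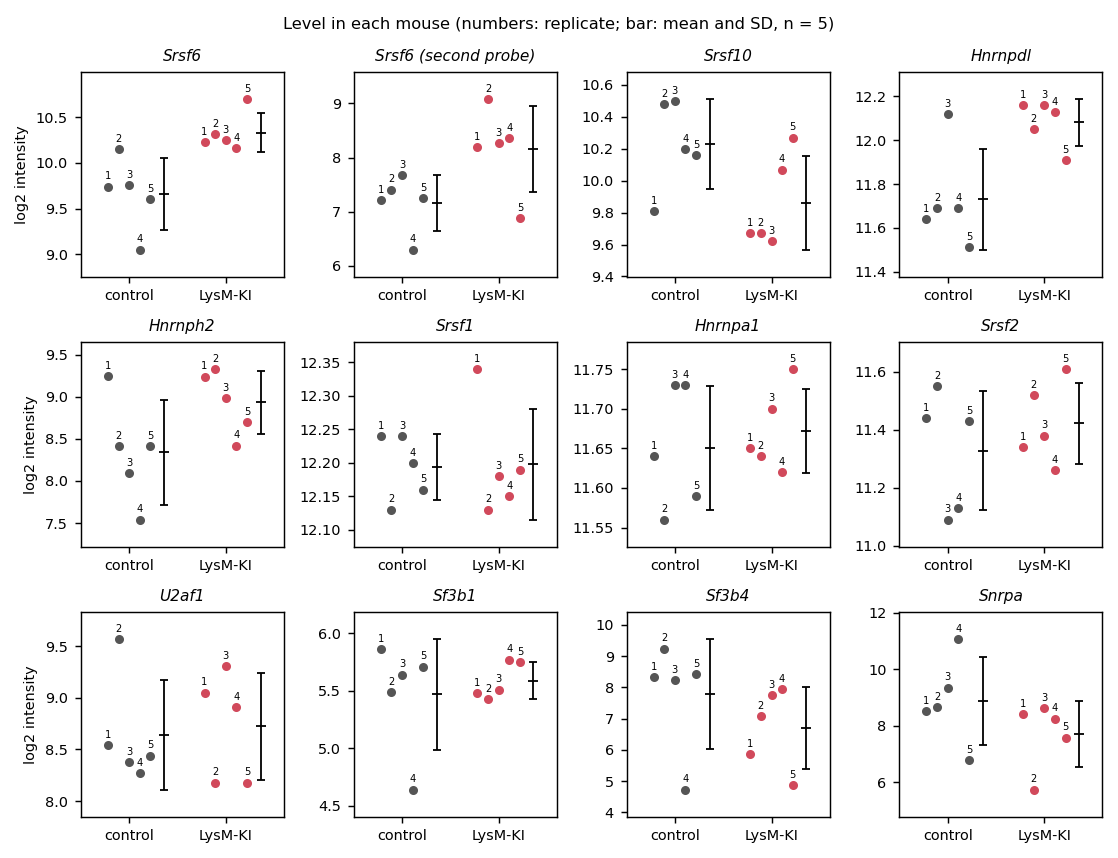
Log2 intensity of 11 genes, Srsf6 on both of its probes, in each mouse (vertical axis, its own range in each panel), with the replicate number above each point and the mean and SD of 5 mice beside each group. For Srsf6, on its brighter probe, the lowest LysM-KI mouse (10.16) and the highest control mouse (10.15) nearly meet. All 10 mice lie between 12.13 and 12.34 for Srsf1 and between 11.56 and 11.75 for Hnrnpa1, but between 4.73 and 9.24 for Sf3b4 and between 5.74 and 11.07 for Snrpa.

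The hnRNP genes made up the largest class, with 16 of 20 above 0 and a median log2 fold change of 0.10. Hnrnph2, of the family that binds G-rich tracts, was at 9.25, 8.41, 8.09, 7.54 and 8.41 in control and 9.24, 9.33, 8.98, 8.42 and 8.70 in LysM-KI replicates 1 to 5. Each LysM-KI mouse exceeded the control mean, but control replicate 1 was higher than 4 of them. The difference was 0.59 on the log2 scale (SE 0.33, 95% interval -0.13 to 1.32, limma adjusted p = 0.938). It was 0.82 (SE 0.30, limma adjusted p = 0.635) if control replicate 1 was left out, 0.39 if control replicate 4 was, and 0.29 when LysM-KI replicate 2 was omitted with the latter. Its other kept probe, detected on 2 control and 4 LysM-KI arrays, gave 0.47.

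Hnrnpdl, a relative of the mRNA decay factor Hnrnpd, was at 11.64, 11.69, 12.12, 11.69 and 11.51 in control and 12.16, 12.05, 12.16, 12.13 and 11.91 in LysM-KI replicates 1 to 5. Only control replicate 3 reached the LysM-KI range. This was a log2 fold change of 0.35 (SE 0.21, 95% interval -0.10 to 0.80, limma adjusted p = 0.938), or 1.28-fold. Its 3 other probes gave 0.54, 0.13 and 0.46, with standard errors from 0.28 to 0.74. Hnrnpd itself was at 0.15 (SE 0.21). Hnrnpll, known for silencing exons of the leukocyte antigen gene Ptprc in lymphocytes, gave 0.42 (SE 0.26) on the brighter probe and -0.94 (SE 0.56) on the dimmer. The dimmer probe was not detected on LysM-KI replicate 2, where it read 4.88. It ran from 7.35 to 7.90 in the other LysM-KI mice and from 7.06 to 8.78 in control mice. Hnrnpul2 was at 0.57 (SE 0.43), with control replicate 4 at 7.57 and the other 4 controls from 9.03 to 9.93, and without that array it was at 0.16 (SE 0.28).

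Of the abundant hnRNPs, Hnrnpa1, Hnrnpm and Hnrnpc varied little between mice on their brightest probes, with an SD of at most 0.16 in either group. Hnrnpa1, a repressor that competes with SR proteins, was at 11.64, 11.56, 11.73, 11.73 and 11.59 in control and 11.65, 11.64, 11.70, 11.62 and 11.75 in LysM-KI replicates 1 to 5. It differed by 0.02 on the log2 scale (95% interval -0.38 to 0.43), and no mouse stood apart on this probe. Its other kept probes gave -0.19 and -0.05. On the latter, control replicate 2 (7.33) and LysM-KI replicate 2 (7.25) lay below the other mice, which ran from 8.24 to 9.28. Hnrnpc, which binds uridine tracts, was at 0.10 (95% interval -0.34 to 0.54), Hnrnpk, which binds cytosine tracts, at 0.09 (-0.38 to 0.56), and Hnrnpu, a nuclear scaffold protein, at 0.09 (-0.45 to 0.63). The 3 other kept probes of Hnrnpk were all below 0, at -0.52, -0.31 and -0.01. Hnrnpm, among the 3 genes with the smallest spread in control mice, came to 0.14 (SE 0.19). Hnrnpa2b1, a relative of Hnrnpa1, gave 0.22 (SE 0.25), and 3 of its other probes gave 0.05 to 0.28 while the dimmest gave -0.87 (SE 0.64). Hnrnpl, which binds CA repeats, was dim, varied more than any other hnRNP gene among the controls (SD 1.45) and was the lowest of the class at -0.95 (SE 0.71), with control mice from 6.28 to 9.93 and LysM-KI mice from 5.79 to 8.54, and its other kept probe gave -0.03. The remaining hnRNP genes, Hnrnpa0, Hnrnpa3, Hnrnpab, Hnrnpf, Hnrnph1, Hnrnph3, Hnrnpr and Hnrnpul1, lay between -0.22 and 0.24. Several of these genes, Hnrnpa1 and Hnrnpa3 among them, have processed pseudogenes whose transcripts a probe could also bind, which was not tested.

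Probes of the same gene often went apart. Of 34 genes with 2 or more kept probes, 13 had all probes above 0, 4 had all below 0 and 17 had probes of both signs. The correlation over the 10 arrays between probes of a gene had a median of 0.21 over 87 pairs, which share their arrays. Neither the sign counts nor this correlation is given here for the other genes of the array. They are therefore not read as a trait of the splicing genes. Genes whose probes lay close together included Srsf2 (0.09 and 0.11), Hnrnpf (0.21 and 0.24), Hnrnpm (0.13 to 0.20) and Srsf3 (-0.21 and -0.17). Hnrnph1 had 5 of 5 probes above 0, from 0.06 to 0.42. A probe reads a short stretch of a transcript, so these values do not show exon usage, and whether dim signal, other transcripts of the gene or cross-binding move with the disagreement was not tested.

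**Figure D3:**
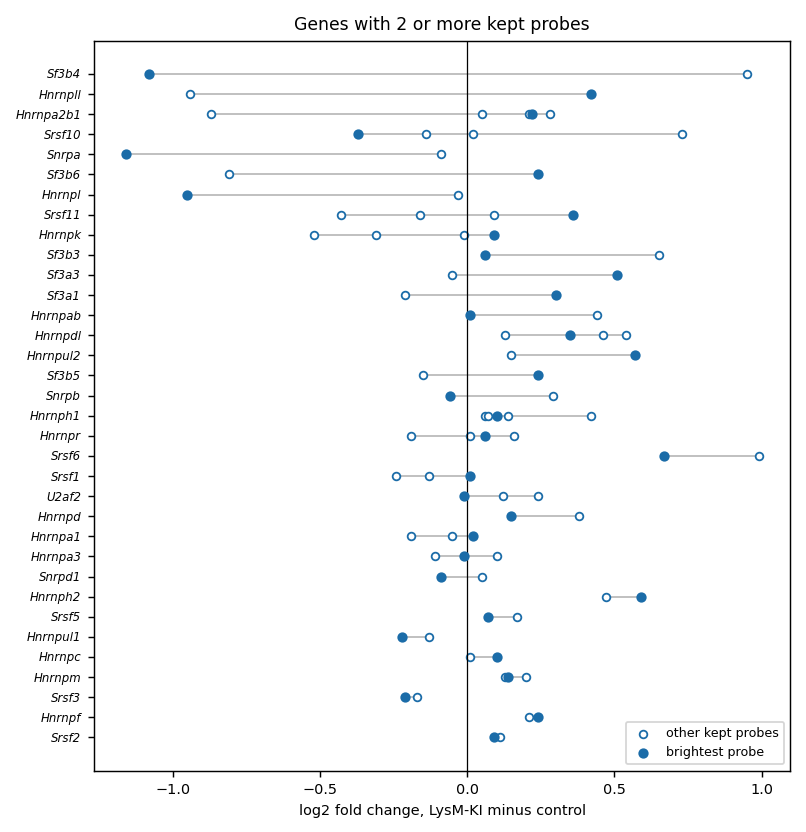
Log2 fold change of LysM-KI against control (horizontal axis) on each kept probe of the 34 genes with 2 or more, ordered by the range between probes, filled for the brightest probe. Sf3b4 has the widest range, from -1.08 to 0.95, and Srsf2 the narrowest, and both probes of Srsf6 are above 0.

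The mice differed in spread as well. The median SD of the 49 genes was 0.47 among control and 0.27 among LysM-KI mice, and 37 genes (75.5%) varied more among controls, as did 70.4% of all tested probes. Leaving out control replicate 4 and LysM-KI replicate 2, the median SDs were 0.40 and 0.24, and again 37 genes varied more among controls. Control replicate 4 was the lowest of the 10 arrays for 14 genes and control replicate 5 for 12, or 28.6% and 24.5% of the genes, against 21.3% and 12.5% of all tested probes. Averaged over the 49 genes, control replicates 4 and 5 lay 0.15 and 0.19 below the mean of the 10 arrays (-0.15 and -0.19), and LysM-KI replicate 3 lay 0.15 above it. SR genes were lowest in control replicate 4 (-0.52), hnRNP genes in control replicate 5 (-0.28) the Sm and snRNP genes in LysM-KI replicate 2 (-0.51) and the U2AF and SF3 genes in LysM-KI replicate 5 (-0.33). The array with the lowest mean was thus a different mouse in each of the 4 classes. Without control replicate 5 the number of genes above 0 was 31 of 49 and their median log2 fold change 0.05.

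**Figure D4:**
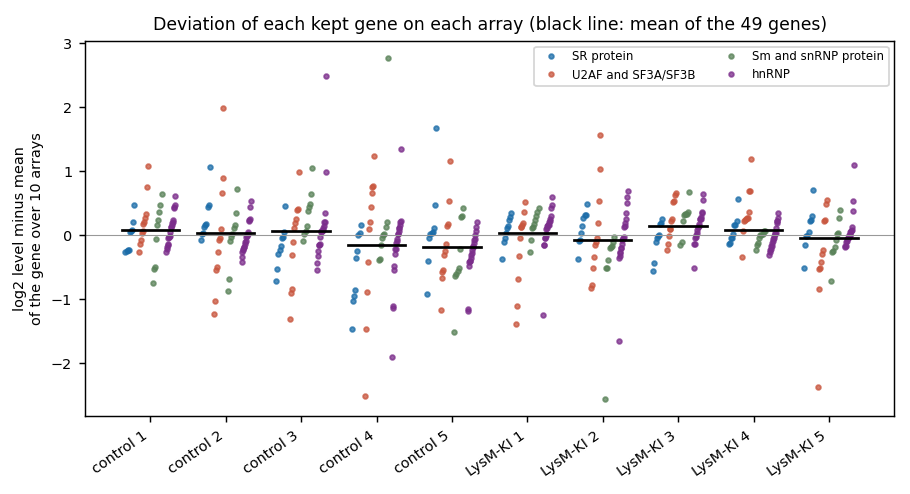
Log2 level of each of the 49 tested genes minus its mean over the 10 arrays (vertical axis), by array and class, with the mean of the 49 genes as a black line. The lines run from -0.19 (control replicate 5) to 0.15 (LysM-KI replicate 3), and single genes deviate by more than 2 on control replicates 3 and 4 and LysM-KI replicates 2 and 5.

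Other genes of the splicing pathway were read from lists of spliceosome components, splicing regulators, kinases and assembly factors. Of 100 other spliceosome and regulator genes on the array 93 were tested, 63 above and 30 below 0. Their median was 0.12 on the log2 scale, and 0 passed the adjusted threshold. At the unadjusted threshold of 0.05 there was 1 higher, the U1-associated gene Luc7l at 1.06 (SE 0.44, limma adjusted p = 0.884), and 1 lower, the helicase gene Aqr at -1.36 (SE 0.55, limma adjusted p = 0.881). Over all tested probes 3.4% passed that threshold as higher and 1.94% as lower, so the list held no more such genes than the background. Luc7l averaged 7.94 ± 1.05 (SD, n = 5) over the controls and 9.01 ± 0.18 over the mutants, and Aqr 7.02 ± 1.13 and 5.66 ± 0.74. Both of the 2 kept Luc7l probes were above 0, and 2 of 3 kept Aqr probes were below 0. Aqr was detected on 5 control and 4 LysM-KI arrays. Its lowest LysM-KI value, 4.53, is not told apart from background. Next came Rbm25 at 0.95 (SE 0.43), Ptbp2, a repressor that binds pyrimidine tracts, at 0.68 (SE 0.32), and Isy1 at -1.08 (SE 0.59). Isy1 was detected on 5 control and 4 LysM-KI arrays.

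Kinases of SR proteins, arginine methyltransferases (Prmt1 and Prmt5) and nuclear import receptors (Tnpo1 and Tnpo3) formed a list with 9 of 11 tested genes above 0, a median of 0.05 and 0 past the adjusted threshold. The SR protein kinase genes Srpk2 and Srpk1 went apart, at 1.08 (SE 0.47, limma adjusted p = 0.919) and -0.35 (SE 0.25, limma adjusted p = 0.947), and Srpk3 was detected on no array. Srpk2 was the 1 gene of the 11 past the unadjusted threshold, which 5.35% of all tested probes passed. It exceeded its control mean in 5 of 5 LysM-KI mice and Srpk1 was below its own in 5 of 5, and 3 of 3 kept Srpk2 probes were above 0. Srpk2 was detected on 4 control and 5 LysM-KI arrays. Its lowest control value, 4.86, is not told apart from background and lowers the control mean of 6.41 (SD 0.91). The difference without that array is not given here. Clk3, of another kinase family that acts on SR proteins, was at 0.63 (SE 0.37). Of the genes that assemble the Sm ring with the SMN protein, a list that again holds Prmt5, 8 of 11 tested were above 0, with a median of 0.18 and 0 past either threshold. Gemin4 was at 1.13 (SE 0.58), Strap at 0.69 (SE 0.45), Smn1 at 0.38 (SE 0.29), the arginine methyltransferase Prmt5 at 0.49 (SE 0.32) and Coil, of the Cajal body, at -0.63 (SE 0.37).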

How the data were processed

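RNA of sorted LSK cells was amplified with the WT-Ovation Pico kit, per the labels, and read on 10 Illumina mouse arrays, 1 per mouse. The authors deposited a linear intensity for each of 45281 probes, not normalized, and beside it a fraction headed as a detection p. Each deposited fraction tracks intensity on the same array (rank correlation at least 0.99, against 0.851 at most with another), so detection p was taken as 1 minus the fraction. The authors' deposited log2 values equal quantile-normalized log2 intensities centred on each probe's median within 0.0131. No source used here names the scanner software or bead summary. Of the value columns, 0 belonged to other samples.

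Intensities were normalized with neqc of limma 3.58.1 (R 4.3.3): normexp background correction with detection p-values, offset 16, quantile normalization and log2. The offset pulls fold changes of dim probes toward 0. Probes detected (p under 0.05) on at least 5 of 10 arrays were kept (17245) and tested with lmFit and eBayes, two-sided, with Benjamini-Hochberg adjustment. The code was tested on simulated data. Array number limits the precision. Same-numbered arrays correlated at -0.0305 to 0.0605 in their deviations, and no label pairs them, so no block was used. Symbols came from the platform annotation, current through RefSeq, and 18 probes with several were left out. Named genes were those with the smallest p of each class, genes fixed by role, those with extreme spread, non-overlapping groups or disagreeing probes, and the smallest p of each pathway list, and the other members were named so that all are accounted for. The genes, lists and alternatives were chosen with earlier results of these data known. Figures were drawn with matplotlib 3.10.9.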

Additional observations from a re-analysis of the deposited data

Results flagged for a closer look

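Of 98 groups of 5 mice (49 genes in 2 groups), 9 held a value far from the other 4, the gap to the nearest exceeding 0.71 of the whole range. For independent normal values this marks about 1 group in 20. The 98 groups share the same 10 arrays, and control replicate 4 was the lowest array for 21.3% of all tested probes. The share of flagged groups over all probes is not given here, so the count is not read as an excess in these genes. Control replicate 4 gave 4 of them, all low: Hnrnpf at 9.50 against 10.62 to 10.85 in the other controls, Hnrnpa3 at 10.62 against 11.14 to 11.35, Sf3a3 at 7.79 against 9.12 to 9.46, and Sf3b4 at 4.73 against 8.23 to 9.24. Control replicate 1 was high for Hnrnpa2b1 at 12.48 (others 11.72 to 11.88) and low for Snrpb at 9.68 (others 10.28 to 10.49). U2af1 was high in control replicate 2 at 9.57 (others 8.27 to 8.54), and Hnrnpk was low in control replicate 5 at 11.33 (others 11.84 to 11.97). The LysM-KI group gave 1, Hnrnpul2 at 9.18 in replicate 2 against 9.81 to 10.01 in the others.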

How the results depend on the processing

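No gene of the 49 and no probe passed the adjusted threshold under any of the 25 alternatives run (0 of 25 gave a call), and the smallest adjusted p of a named gene was 0.606. The median log2 fold change of the genes ran from 0.05 to 0.17. The highest was with median scaling, which put the median of all probes at 0.13. Unadjusted calls over all probes were 1848 of 45281 with no filter and 531 of 9707 with probes detected on all arrays. They were 922 of 17245 in the reported fit and 743 to 1224 of 17245 leaving out an array. Srsf6 was joined by Hnrnpdl, making 2 genes at an unadjusted p under 0.05, without background correction, on the authors' values, with no filter and with trended moderation. These were 2 of 49 genes, or of 51 with no filter. Over all probes the same fits called 870, 871, 1848 and 855, of 45281 with no filter and of 17245 in the others. The second gene is therefore not read as a trait of these genes. The count ran from 0 to 2 leaving out an array: 2 without control replicate 1 (Hnrnph2), 4 (Sf3b4) or 5 (Snrpa), and 0 without LysM-KI replicate 5. Genes with groups that do not overlap were 0 with cyclic loess, 2 without control replicate 4 together with LysM-KI replicate 2 or 4, and 1 to 3 leaving out 1 array. The share of all probes with this pattern is not given here for these settings. With the replicate number as a block the unadjusted count stayed 1 gene (980 probes), and that block changed no call. Members found through synonyms numbered 66, of which 63 were tested, with a median of 0.10. The median of the U2AF and SF3 genes was 0.24 with median scaling and with probes detected on all arrays, and that of the Sm and snRNP genes -0.03 to 0.13 leaving out 1 array (0.13 without control replicate 3). Of 34 named genes, 22 kept their sign throughout. The log2 fold change of Srsf1 and that of U2af1 were -0.0035 and -0.01 with cyclic loess. The log2 fold change of U2af2 was 0.0031 without background correction, 0.04 with median scaling, 0.0032 on the authors' values and 0.03 with array weights. Leaving out 1 array, or control replicate 4 with LysM-KI replicate 2 or 4, gave -7.6e-05 to 0.05 for Hnrnpa1, -0.02 to 0.16 for Hnrnpk, -0.0043 to 0.21 for Hnrnpu, -0.13 to 0.22 for Sf3b1, -0.03 to 0.46 for Sf3b6, -0.20 to 0.0039 for Snrpb, -0.01 to 0.28 for Snrpd3, -0.03 to 0.02 for Srsf1, -0.06 to 0.67 for Srsf11, -0.56 to 0.18 for Srsf3, -0.06 to 0.32 for U2af1 and -0.27 to 0.20 for U2af2. The cause of these changes was not tested. With 5 mice a group, small differences in dim probes such as Sf3b1 cannot be resolved.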
